A study of Mus musculus with 4 samples.

Results

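The 10 genes described here are *Fos*, *Jun*, *Junb*, *Jund*, *Egr1*, *Ier2*, *Zfp36*, *Btg2*, *Dusp1* and *Klf6*, a set of immediate early genes that includes core subunits of the transcription factor AP-1. They were taken by gene symbol from a Ribo-seq table of 11598 genes, and all 10 were in it. Ribo-seq counts ribosome-protected fragments (RPFs), the pieces of mRNA that a translating ribosome shields from RNase I. The 4 libraries came from leptotene/zygotene spermatocytes, male germ cells in early meiotic prophase, sorted by flow cytometry from testes at postnatal day 12. There were 2 libraries from control mice, which the labels call wild type, and 2 from *Eef1g*-cKO mice. In the latter, *Stra8*-GFPCre deletes floxed exons of *Eef1g* in male germ cells from the spermatogonial stage on, on a C57BL/6J background, and the controls were littermates whose Cre and floxed alleles are not given in the sources used here. *Eef1g* encodes the gamma subunit of translation elongation factor 1. Testes were dissociated with a mixture of enzymes before sorting, and each genotype's 2 libraries are described as independent biological replicates.

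Immediate early genes are the first genes that cells switch on after growth factors, stress or tissue disruption, within minutes and without new protein synthesis, because the factors that activate them are already present. Their mRNAs are short-lived and many carry AU-rich elements in the 3′ UTR, so the transcripts disappear soon after the stimulus ends. FOS and the JUN proteins pair through leucine zippers to form AP-1, while EGR1 and KLF6 are zinc finger transcription factors. Several products feed back on the response: DUSP1 removes the activating phosphates of MAP kinases, ZFP36 (tristetraprolin) binds AU-rich elements and speeds mRNA decay, and BTG2 brings the CCR4-NOT deadenylase to mRNAs and restrains proliferation.

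Of the 10 genes, 6 had lower RPF abundance in *Eef1g*-cKO than in control, with a log2 fold change below -1 and p under 0.05 before adjustment. They were *Junb*, *Dusp1*, *Btg2*, *Jund*, *Fos* and *Egr1*. No member was increased in limma, edgeR or DESeq2. By the same rule 16.3% of the 10475 genes tested were decreased and 7.32% increased. After Benjamini-Hochberg adjustment over all genes tested, 3 members stayed decreased in limma, *Junb*, *Dusp1* and *Btg2*, against 4.97% of all genes. In edgeR's quasi-likelihood test on the reads, 5 members were decreased by adjusted p, these 3 with *Fos* and *Jund*, against 11.2% of the genes that edgeR tested. The median log2 fold change of the members was -1.45, and that of all genes tested was -0.23. Both *Eef1g*-cKO libraries lay below both control libraries for 8 of the 10 genes, as they did for 37.7% of all genes tested. The exceptions were *Ier2* and *Klf6*, whose genotypes overlapped. When either control library was left out, fewer members passed by unadjusted p, and so did fewer of all genes tested. With 1 library left out, the members' median log2 fold change lay between -1.27 and -1.67. That of all genes tested lay between -0.17 and -0.25. Adjusted calls of members and of all genes were lost when either control library was left out. They grew in number, for members and all genes alike, when either *Eef1g*-cKO library was the one left out.

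The values are FPKM, that is, read counts scaled to a gene length of 1 kb and to 1000000 reads counted on genes (RPM where only the latter was done), and fold changes are on the log2(FPKM + 1) scale, which understates the change of low genes. The control libraries held 2479504 and 1384282 reads, the *Eef1g*-cKO libraries 223906 and 407979, so counting error is larger in the *Eef1g*-cKO values. Here 3 members, *Junb*, *Btg2* and *Dusp1*, had 3 or fewer reads in both *Eef1g*-cKO libraries together, and for them the ratio of pooled RPM is given with its exact 95% interval, which covers counting error only. The targeted gene *Eef1g* had 107 and 58 control reads against 0 and 4 *Eef1g*-cKO reads, where a count of 0 allows up to 3 reads. In sorted populations such as these, fewer cells of a type and fewer RPFs per cell cannot be told apart, nor can less mRNA and less translation of it, since only RPFs were analysed here.

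**Figure D1:**
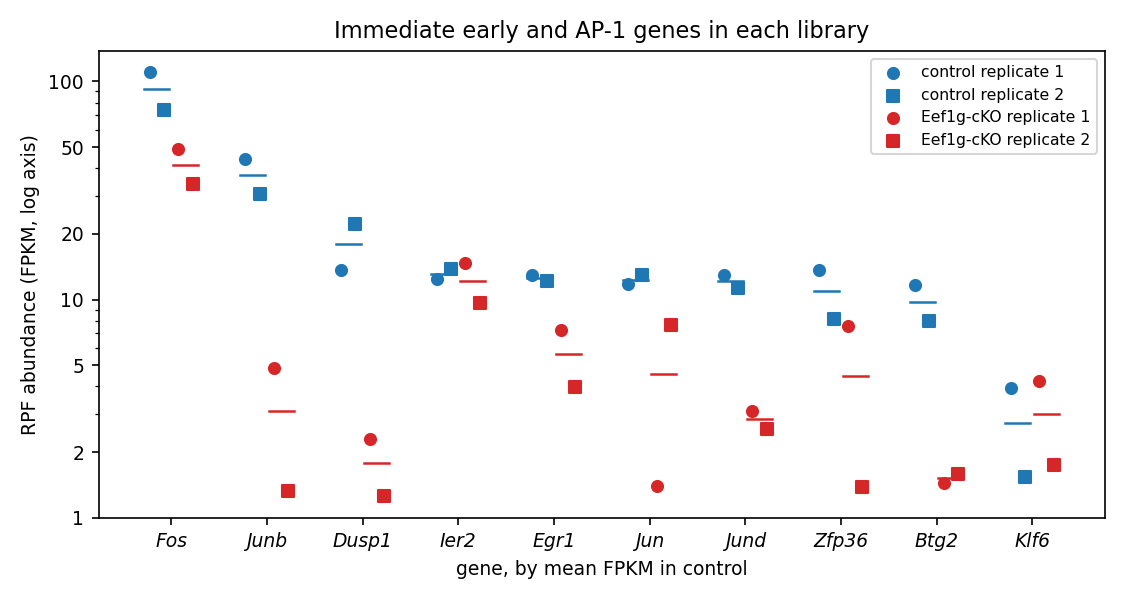
RPF abundance (FPKM, logarithmic axis) of each of the 10 genes in the 2 control (blue) and 2 *Eef1g*-cKO (red) libraries, with a bar at each genotype's mean. *Junb*, *Dusp1*, *Btg2* and *Jund* show the widest gaps between genotypes, and the points of *Ier2* and *Klf6* overlap.

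The promoters of the 4 members that passed in edgeR by adjusted p and have an entry with a cAMP response element or its core are shown, since this element is the textbook binding site of the CREB and ATF factors that switch such genes on. The sequences are RefSeq's (GRCm38.p6, from 250 bases before to 50 after the start of the gene, read along the gene's own strand), with every TGACGTCA and every TGACG in capitals.
Fos, chr12:85473640-85473939, plus strand: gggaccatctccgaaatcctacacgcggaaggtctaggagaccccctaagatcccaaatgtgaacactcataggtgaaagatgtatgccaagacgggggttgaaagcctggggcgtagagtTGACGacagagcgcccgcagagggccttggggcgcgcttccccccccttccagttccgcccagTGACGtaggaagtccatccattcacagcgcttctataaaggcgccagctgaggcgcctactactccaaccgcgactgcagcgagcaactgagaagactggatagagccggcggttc
Junb, chr8:84978699-84978998, minus strand: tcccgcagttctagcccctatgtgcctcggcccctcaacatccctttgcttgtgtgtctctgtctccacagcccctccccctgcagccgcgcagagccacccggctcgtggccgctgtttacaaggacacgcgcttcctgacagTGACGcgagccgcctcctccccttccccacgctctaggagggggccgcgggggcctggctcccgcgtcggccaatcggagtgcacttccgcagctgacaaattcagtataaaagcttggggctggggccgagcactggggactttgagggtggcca
Btg2, chr1:134079106-134079405, minus strand: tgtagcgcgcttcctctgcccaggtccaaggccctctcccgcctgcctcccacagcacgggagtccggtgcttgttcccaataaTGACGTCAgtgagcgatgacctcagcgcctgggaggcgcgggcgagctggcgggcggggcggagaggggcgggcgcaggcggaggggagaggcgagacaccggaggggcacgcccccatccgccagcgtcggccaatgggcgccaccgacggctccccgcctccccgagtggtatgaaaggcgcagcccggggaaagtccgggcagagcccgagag
Dusp1, chr17:26508423-26508722, minus strand: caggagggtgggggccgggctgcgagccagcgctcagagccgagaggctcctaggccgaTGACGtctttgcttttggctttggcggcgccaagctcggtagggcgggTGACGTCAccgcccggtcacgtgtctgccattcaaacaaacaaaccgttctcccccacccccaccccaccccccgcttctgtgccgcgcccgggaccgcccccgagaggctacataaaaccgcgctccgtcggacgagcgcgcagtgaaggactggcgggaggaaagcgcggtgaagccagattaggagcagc
The full palindrome TGACGTCA stood at -166 in *Btg2* and at -143 in *Dusp1*, counted in bases from the start of the gene, and in 1.79% of the 32851 promoters of that length in the table. Its core TGACG, searched on both strands and contained in the full element, stood by itself at -129 and -66 in *Fos*, at -106 in *Junb* and at -191 in *Dusp1*, and 20.8% of all promoters held at least 1. The table had a promoter for 8 of the 10 members. *Jund*, which also passed in edgeR by adjusted p, had no match to the element or its core, and neither had *Jun*, *Zfp36* or *Klf6*. The promoters shown were thus picked for having a match as well as for their change. Of the other motifs searched, the AP-1 site (TGACTCA or TGAGTCA) was in none of these 8 windows and in 5.20% of all promoters, and the serum response element was in *Zfp36*, at -58, and in 1.63% of all. Sites farther than 250 bases before the start were not searched. A match to these letters is a description of the sequence and not a measured binding site.

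*Junb*, a single-exon gene on chromosome 8 (GRCm38.p6, 84976909 to 84978748), fell most of the members. JUNB is a JUN protein that often opposes c-JUN in the control of proliferation. It had 202 and 78 control reads against 2 and 1 *Eef1g*-cKO reads, or 44.3 and 30.6 FPKM against 4.85 and 1.33. The control values were thus above both *Eef1g*-cKO values by a wide margin. Pooled RPM was 15.3-fold lower in *Eef1g*-cKO (95% interval 5.17 to 74.5), and the fitted log2 fold change was -3.36 (SE 0.53, limma adjusted p = 0.0328, edgeR adjusted p = 3.89e-04). Without control replicate 1 the unadjusted limma p was 0.0712, and without control replicate 2 it was 0.0525, with log2 fold changes of -3.10 and -3.62. Leaving out *Eef1g*-cKO replicate 1 gave -4.02, and leaving out replicate 2 gave -2.69.

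*Jund*, the JUN gene that most resting cells express, and *Jun*, which encodes c-JUN, were lower as well, but only the first passed the test. *Jund* had 13.0 and 11.3 FPKM in control against 3.10 and 2.56 in *Eef1g*-cKO, from 93 and 45 against 2 and 3 reads. Its 2 libraries of a genotype were close to each other and the genotypes did not overlap. The log2 fold change was -1.78 (SE 0.40, limma unadjusted p = 0.00444, adjusted p = 0.0523; edgeR adjusted p = 0.0222), and without control replicate 1 it was -1.69 with an unadjusted p of 0.0550. *Jun* had 11.8 and 12.9 FPKM in control against 1.40 and 7.69 in *Eef1g*-cKO, the latter from 1 and 10 reads. The *Eef1g*-cKO libraries disagreed here, so the log2 fold change of -1.55 came with an SE of 0.66 and an unadjusted p of 0.0594 (limma). Without *Eef1g*-cKO replicate 2, *Jun* stood at -2.47 with an unadjusted limma p of 2.30e-04, and without *Eef1g*-cKO replicate 1 at -0.62 with a p of 0.177. Leaving out control replicate 1 or 2 gave *Jun* an unadjusted limma p of 0.307 or 0.336.

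*Fos*, on chromosome 12 (85473890 to 85477274), which encodes the main partner of the JUN proteins, was the most abundant member in every library and kept that rank in *Eef1g*-cKO. Its reads were 574 and 215 for control against 23 and 29 for *Eef1g*-cKO, or 110.6 and 74.2 FPKM against 49.1 and 34.0. Both control values were higher than both *Eef1g*-cKO values, though the gap was narrower than for *Junb*. The log2 fold change was -1.13 (SE 0.30, limma unadjusted p = 0.0103, adjusted p = 0.0725; edgeR adjusted p = 0.00953). It was -0.85 without control replicate 1 (limma unadjusted p = 0.124) and -0.87 without *Eef1g*-cKO replicate 2, where the fold no longer passed.

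Summed over *Jun*, *Junb* and *Jund*, RPM was 156 and 130 for the control libraries against 22.3 and 34.3 for *Eef1g*-cKO, with 95% counting intervals of 7.25 to 52.1 and 18.8 to 57.6 in the latter. The makeup of these JUN reads could be read in control, where *Junb* gave 52.1% and 43.3% of them and *Jun* 24.0% and 31.7%. In *Eef1g*-cKO replicate 1 only 5 JUN reads were left, too few to give a makeup. In replicate 2 *Jun* gave 10 of 14 reads and *Junb* 1 of 14, or 7.14% (95% Clopper-Pearson interval 0.181% to 33.9%). *Fos* took 59.7% and 54.4% of the reads of *Fos* and the 3 JUN genes in control against 82.1% and 67.4% in *Eef1g*-cKO, whose intervals of 63.1% to 93.9% and 51.5% to 80.9% partly reach the control shares.

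The feedback genes *Dusp1* and *Btg2* fell with *Junb*, and these 2 were the members whose decrease passed the unadjusted test whichever library was left out. *Dusp1* (chromosome 17, 26505591 to 26508472) was covered by 66 and 60 reads in control and 1 in each *Eef1g*-cKO library, or 13.7 and 22.3 FPKM against 2.30 and 1.26. Pooled RPM was 10.3-fold lower in *Eef1g*-cKO (95% interval 2.79 to 86.0), with a fitted log2 fold change of -2.76 (SE 0.46, limma adjusted p = 0.0352, edgeR adjusted p = 0.00561). *Btg2* (chromosome 1, 134074865 to 134079155) was covered by 89 and 34 control reads against 1 and 2 *Eef1g*-cKO reads, or 11.6 and 7.97 FPKM against 1.45 and 1.59. For both genes the genotypes were far apart, and a single read more or less in *Eef1g*-cKO would change the value by a large factor, as the width of the intervals shows. *Btg2* was 6.71-fold lower by pooled RPM (95% interval 2.24 to 33.0), with a fitted log2 fold change of -2.08 (SE 0.45, limma adjusted p = 0.0497, edgeR adjusted p = 0.0161). DESeq2 on the same reads called 2 members decreased by adjusted p, *Fos* and *Junb*, against 451 of all 11598 genes. DESeq2 gave no adjusted p to some genes with few reads, so the share among the genes it could call was higher. It gave an adjusted p of 0.0569 for *Dusp1* and 0.116 for *Btg2*.

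*Zfp36*, which encodes the decay factor tristetraprolin, did not pass the test. It had 13.7 and 8.19 FPKM in control against 7.59 and 1.39 in *Eef1g*-cKO, from 60 and 20 against 3 and 1 reads. The higher *Eef1g*-cKO value lay just under the lower control value. Its log2 fold change was -1.36 (SE 0.69, limma unadjusted p = 0.0989), and it was -2.28 with a p of 0.00106 when *Eef1g*-cKO replicate 1 was left out and -0.44 with a p of 0.367 when replicate 2 was.

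Among the remaining transcription regulators, *Egr1* fell by a margin that several choices removed, while *Ier2* and *Klf6* did not pass in either direction. *Egr1* had 13.0 and 12.2 FPKM in control against 7.27 and 3.99 in *Eef1g*-cKO, from 5 reads in each of the latter. The genotypes did not overlap, and the log2 fold change was -1.08 (SE 0.41, limma unadjusted p = 0.0402, adjusted p = 0.146). Its call was lost without either control library (unadjusted p = 0.214 and 0.193) and without *Eef1g*-cKO replicate 2, where the log2 fold change was -0.72. *Ier2*, which encodes a small nuclear protein, had 12.5 and 13.8 FPKM in control against 14.7 and 9.66 in *Eef1g*-cKO. Its control values lay between its *Eef1g*-cKO values, and the log2 fold change was -0.12 (SE 0.35, limma unadjusted p = 0.733). The pooled ratio left room for a change in either direction, since *Ier2* RPM in *Eef1g*-cKO was 0.885 times control with a 95% interval of 0.424 to 1.67. *Klf6*, the least abundant member in control, had 3.92 and 1.54 FPKM there and 4.24 and 1.74 in *Eef1g*-cKO. Replicates of *Klf6* differed more than genotypes did, with a log2 fold change of 0.10 (SE 0.60, limma unadjusted p = 0.874) and a pooled ratio of 0.856 (95% interval 0.327 to 1.90).

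**Figure D2:**
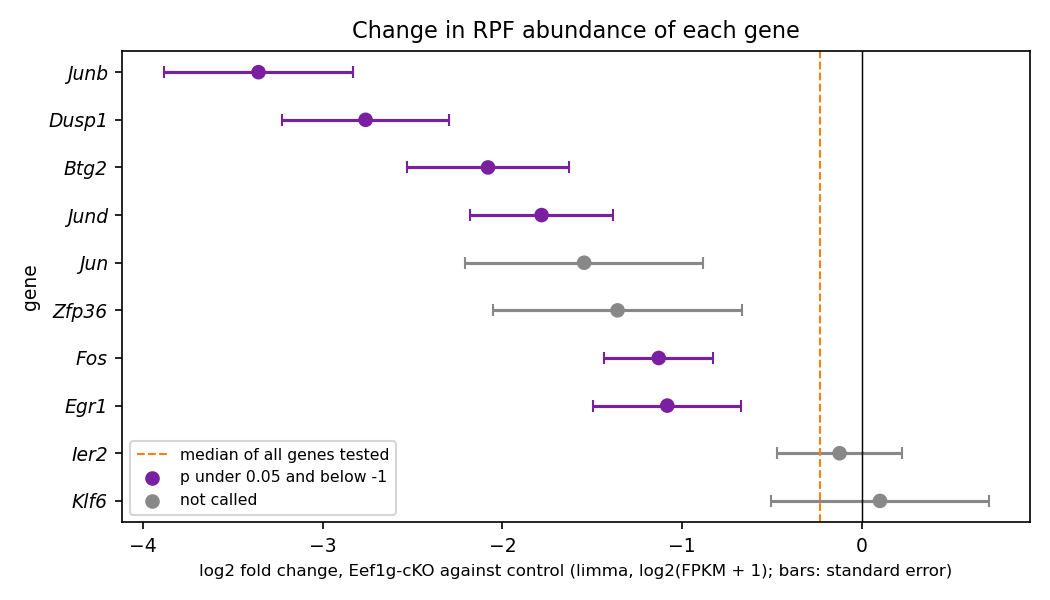
Fitted log2 fold change of each gene in *Eef1g*-cKO against control (limma on log2(FPKM + 1), bars are the standard error, 2 libraries per genotype), with the median of all genes tested (-0.23) as a dashed line. Purple points are the 6 genes with p under 0.05 and a log2 fold change below -1, and *Ier2* and *Klf6* lie beside the line at 0.

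Levels of different genes were compared as RPM per kilobase of coding sequence, a scale on which RPFs of one gene can be set against another. In control, *Fos* was highest, with 203 and 136, and its libraries did not overlap those of *Junb*, the next, with 78.7 and 54.4. *Junb* and *Btg2* (75.3 and 51.5) overlapped. Both stood above *Jun* (37.3 and 41.0), *Jund* (36.6 and 31.7), *Dusp1* (24.1 and 39.3) and *Ier2* (28.5 and 31.5), of which *Dusp1* overlapped its neighbours *Jund* and *Ier2* as well as *Jun*. *Egr1* (24.9 and 23.4), *Zfp36* (25.2 and 15.0) and *Klf6* (17.3 and 6.79) were lowest, and each overlapped its neighbour. In *Eef1g*-cKO the order of the mean levels was different: *Fos* still led with 89.9 and 62.2, *Ier2* moved from rank 7 to rank 2 with 33.5 and 22.1, and *Junb* moved from rank 2 to rank 9 with 8.63 and 2.37. *Dusp1* came last in *Eef1g*-cKO with 4.05 and 2.22. Below *Fos* the *Eef1g*-cKO levels, that of *Ier2* included, came from 11 reads or fewer per gene over both libraries. Every pair of neighbours below *Fos* overlapped, so that *Ier2* was not separated from *Jun* (4.44 and 24.4), the next.

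The 10 genes summed to 550 and 433 RPM in control against 210 and 150 RPM in *Eef1g*-cKO, with 95% counting intervals of 154 to 279 and 114 to 192 in *Eef1g*-cKO. Without *Fos* the sums were 319 and 277 against 107 and 78.4. *Fos* gave 42.1% and 35.9% of the members' reads in control against 48.9% and 47.5% in *Eef1g*-cKO.

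The members share features that did not enter their choice. Their coding sequences are rich in G and C, with a median GC content of 61.3% against 52.8% for genes tested, and 72.9% against 60.1% at the last codon position. *Klf6* (51.0%) is the 1 member whose coding sequence is under 58% GC. *Jun*, *Junb*, *Jund* and *Ier2* have 1 coding exon each, as have 506 of the genes tested. Across all genes tested, the log2 fold change fell with coding GC content: 4.64% of genes under 45% GC were decreased, 16.6% of those from 50% to 55%, and 26.4% of the 2097 genes with at least 58%. The share of decreased genes among those whose control level lay within the range of the members, 2.73 to 92.4 FPKM, was 18.0%. When the smooth trend with coding GC content was removed from each library, 4 members were decreased by unadjusted p, *Junb*, *Dusp1*, *Btg2* and *Jund*, against 16.3% of genes tested. By adjusted p 2 were decreased, *Junb* and *Dusp1*, against 550 of 10122 genes. The members' median log2 fold change was then -1.09 and that of all genes -0.25. *Fos* stood at -0.83 and *Egr1* at -0.79, and *Ier2* turned from -0.12 to 0.27. Centring each library on its median, which shifts all log2 fold changes up by 0.21, left the same 4 members decreased by unadjusted p, against 1346 of 10475 genes. *Fos* then stood at -0.92 and *Egr1* at -0.87, and the share of increases among all calls moved from 31.0% to 46.2%.

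**Figure D3:**
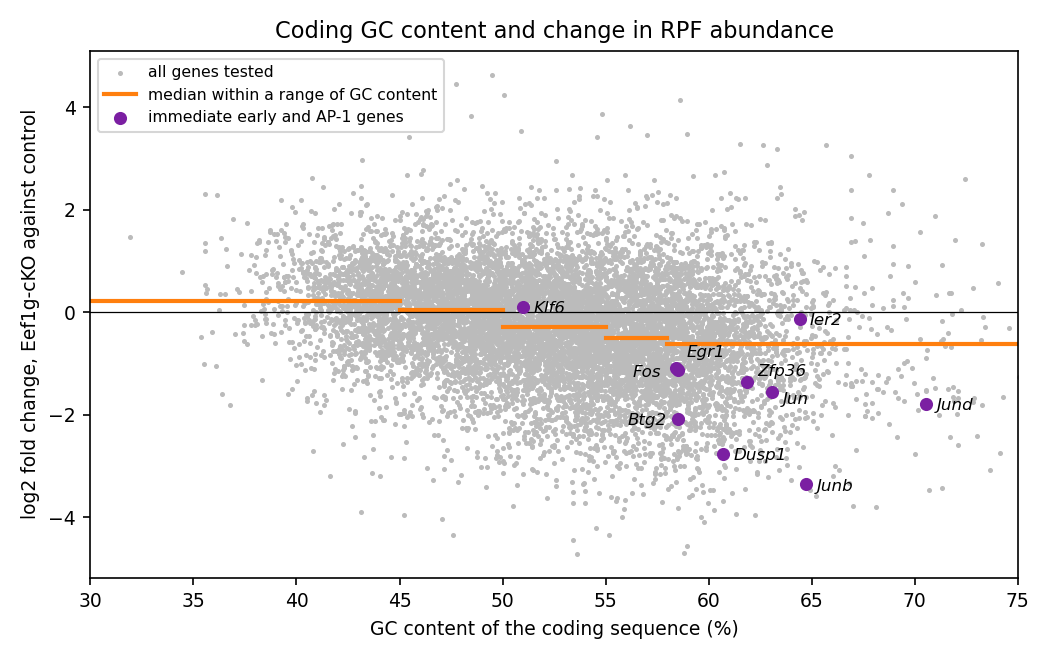
Log2 fold change in *Eef1g*-cKO against control, plotted against the GC content of the coding sequence (%) for the genes tested that have a coding sequence (grey) and the 10 immediate early and AP-1 genes (purple), with the median of all genes in 5 ranges of GC content (orange). The median falls from 0.23 in the lowest range to -0.62 in the highest, where 9 of the 10 genes lie, and *Junb*, *Dusp1* and *Btg2* lie well below it.

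AU-rich elements in the 3′ UTR mark mRNAs for rapid decay, and ZFP36 is one of the proteins that bind them. The nonamer TTATTTATT, a textbook high-affinity site, was in the 3′ UTR (GENCODE M21, GRCm38) of *Fos*, *Zfp36* and *Dusp1*. It is shown in capitals, with its flanks, 1 site per gene, because 3 of 10 members carried it against 6.83% of the 10001 genes tested with a 3′ UTR.
Fos, chr12:85477092-85477121, plus strand: cgtttttattgtgttttcaatTTATTTATT
Zfp36, chr7:28376961-28376990, minus strand: ggccctttatttatgacgactTTATTTATT
Dusp1, chr17:26506167-26506196, minus strand: ggctcatgggagctggtccTTATTTATTta
The shorter core ATTTA, which the nonamer contains, was in 9 of the 10 members, all but *Ier2*, and in 65.2% of genes tested. Per kilobase of 3′ UTR the members had a median of 2.76 ATTTA and the genes tested 1.21. Over all genes tested, 12.6% of those with the nonamer were decreased in *Eef1g*-cKO and 16.5% of those without it. Of the 3 members with the nonamer, *Fos* and *Dusp1* passed by unadjusted p and *Zfp36* did not. Any relation between the element and the change of the members was not tested.

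Lists of related genes placed the members among their relatives. Of 29 other immediate early genes tested, 12 were decreased and 1 increased by unadjusted p, beside 16.3% and 7.32% of all genes. By adjusted p 5 were decreased in limma, against 4.97% of all genes. Of the 12 decreased genes, 8 had 3 or fewer *Eef1g*-cKO reads and 4 had more. Both *Eef1g*-cKO libraries were at 0 for 5 genes of the list, here named after their values were seen. Against a floor of 3 reads over both libraries, *Gadd45g* was at least 5.18-fold lower in *Eef1g*-cKO by pooled RPM, *Ctgf* at least 2.67-fold and *Cebpd* at least 1.47-fold, and *Ier3* and *Cebpb* had too few control reads for a bound above 1. The median log2 fold change of the list was -1.21, and -0.99 with these 5 genes at their bound or at 0. *Arc*, the activity-regulated cytoskeletal protein of neurons, had 22.8 and 25.7 FPKM in control against 2.92 and 4.81 in *Eef1g*-cKO, a log2 fold change of -2.40 (SE 0.37, limma adjusted p = 0.0327) whose call held whichever library was left out. *Pim1*, a kinase that favours survival, went from 15.6 and 23.5 to 5.10 and 2.80 FPKM, with a log2 fold change of -2.07 (limma adjusted p = 0.0475). *Nr4a1*, an orphan nuclear receptor, went from 18.6 and 18.7 to 1.80 and 5.94 FPKM, with a log2 fold change of -2.15 (limma adjusted p = 0.0601). These 3 were chosen among genes whose genotypes lie apart. The calls of *Pim1* and *Nr4a1* were lost without either control library, with unadjusted limma p up to 0.0878 and 0.133, and *Nr4a1* stood at -1.50 without *Eef1g*-cKO replicate 1 and at -2.81 without replicate 2. The 1 increase was *Plk2*, a polo-like kinase named after its value was seen, at 15.8 and 13.7 FPKM in control against 27.1 and 36.8 in *Eef1g*-cKO.

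The remaining AP-1 and related bZIP genes include partners and competitors of the JUN proteins. Of 11 tested, 1 was decreased by unadjusted p, against 16.3% of all genes, and none by adjusted p in limma. In edgeR 1 of 9 tested was decreased by adjusted p, against 11.2% of all genes tested there. Their median log2 fold change was -0.83 beside -0.23 for all genes, and 2 were decreased by unadjusted p once the GC trend was removed. The difference from the members was not tested. The 1 gene was *Atf3*, a stress-induced bZIP factor named after its value was seen, with 34 and 24 control reads against 0 and 1 in *Eef1g*-cKO.

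The kinase route that leads from growth factors and stress to these genes runs through the kinases RAF, MEK, ERK, JNK and p38 to nuclear factors such as SRF. Of 29 kinases and nuclear factors of the route that were tested, 4 were decreased by unadjusted p, against 16.3% of all genes, and none increased, with a median log2 fold change of -0.26. No gene of the route passed by adjusted p in limma. In edgeR 2 of 28 were decreased and 1 increased by adjusted p, beside 904 and 705 of all 8056 genes tested there. *Rps6ka1*, the ribosomal S6 kinase RSK1 that acts below ERK, had 23.1 and 29.3 FPKM in control against 2.74 and 12.8 in *Eef1g*-cKO, a log2 fold change of -1.91 (limma unadjusted p = 0.0247). *Map3k1* and *Map2k3*, kinases of the stress branch, had log2 fold changes of -1.17 and -1.19 (limma unadjusted p = 0.0469 and 0.0375). Each of these 3 calls was lost without either control library and without *Eef1g*-cKO replicate 1, where the log2 fold changes were -0.97 for *Rps6ka1*, -0.64 for *Map3k1* and -0.93 for *Map2k3*. Without *Eef1g*-cKO replicate 2, *Rps6ka1* stood at -2.85.

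Relatives of single members were mixed. Among 15 KLF and SP factors, the zinc finger relatives of *Klf6*, 2 were decreased by unadjusted p, or 13.3%, near the 16.3% of all genes. Their median log2 fold change was -0.51. *Klf11* had 178 and 109 control reads against 0 and 8 in *Eef1g*-cKO, with a log2 fold change of -3.03 (limma unadjusted p = 0.0123) that lost its call without either control library (unadjusted p up to 0.199). Leaving out *Eef1g*-cKO replicate 1 gave -1.75 for *Klf11*, and leaving out replicate 2 gave -4.31. Of 11 dual-specificity phosphatases, the relatives of *Dusp1*, 4 were decreased by unadjusted p, against 16.3% of all genes, and none increased in limma. Of these 4, 2 passed by adjusted p, against 4.97% of all genes, and 2 had 3 or fewer *Eef1g*-cKO reads. By adjusted p, edgeR called 1 of 6 phosphatases decreased and 1 increased, beside 904 and 705 of all 8056 genes tested there. *Dusp2*, a nuclear MAP kinase phosphatase, had 22.2 and 17.0 FPKM in control against 5.52 and 6.06 in *Eef1g*-cKO (log2 fold change -1.59, limma adjusted p = 0.0492), and its call was lost without control replicate 1 (unadjusted p = 0.0599). *Dusp14* stood at -1.19 (limma unadjusted p = 0.0304), between -0.90 and -1.47 with a library left out, and kept its call only when *Eef1g*-cKO replicate 2 was the one left out. Of 19 relatives of *Btg2* and *Zfp36* and subunits of the CCR4-NOT deadenylase, none was decreased and 2 were increased by unadjusted p. The shares of all genes were 16.3% and 7.32%. The list's counts in edgeR by adjusted p were the same, beside 904 decreased and 705 increased of all 8056 genes tested there. Its median log2 fold change was -0.13. *Tob1*, an antiproliferative relative of *Btg2*, had 19.8 and 9.17 FPKM in control against 35.2 and 39.7 in *Eef1g*-cKO, a log2 fold change of 1.40 (limma unadjusted p = 0.0129) that was 0.89 without control replicate 2 and 1.92 without control replicate 1. *Cnot6l*, a catalytic subunit of the deadenylase, rose by 1.02 on the log2 scale (limma unadjusted p = 0.0343), a call that was lost whichever library was left out (p from 0.0543 to 0.117).

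**Figure D4:**
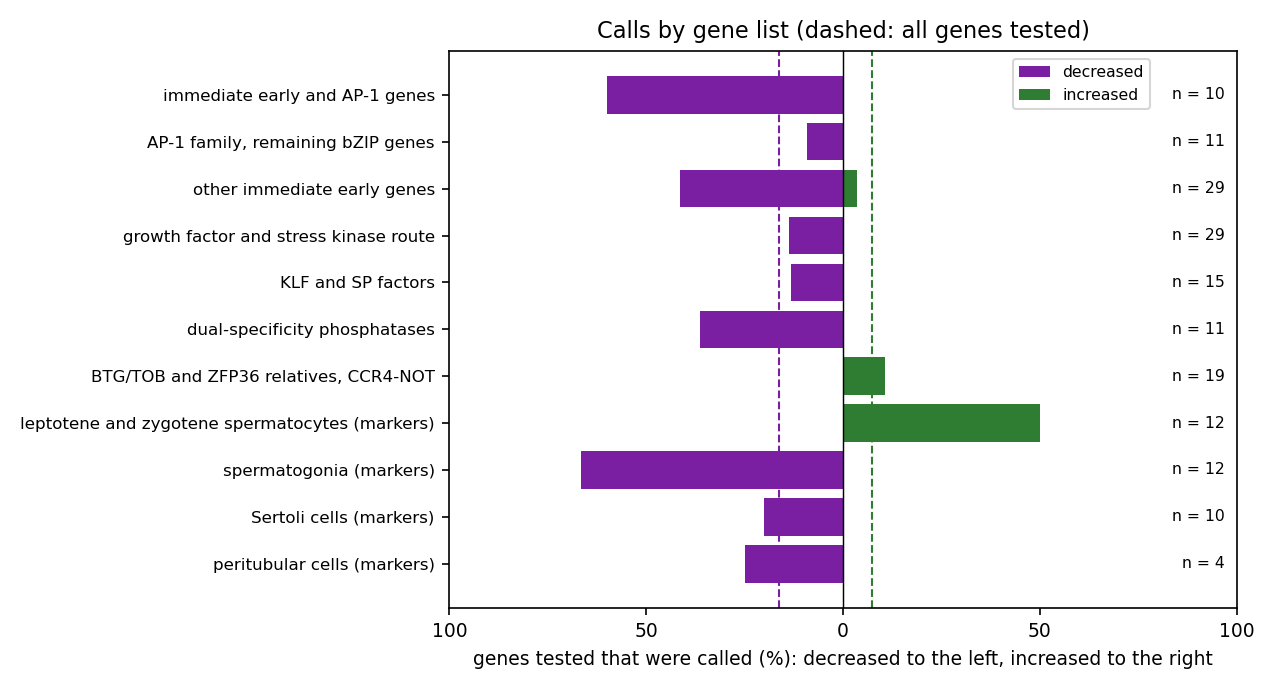
Share of genes tested (%) that were decreased (purple, to the left) or increased (green, to the right) in *Eef1g*-cKO at a limma p under 0.05 before adjustment with a change beyond 1 on the log2 scale, for the members, 6 lists of related genes and the cell type marker lists with at least 4 genes tested. Dashed lines mark the shares among all genes tested, 16.3% and 7.32%, and the number of genes tested stands at the right.

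Summed levels of several marker lists differed between the genotypes, as those of the members did. Of 12 leptotene and zygotene markers, such as *Sycp3* and *Hormad1*, 6 were increased and none decreased by unadjusted p, beside 7.32% and 16.3% of all genes. Their summed level rose from 6366 and 5792 RPM in control to 15641 and 14395 in *Eef1g*-cKO. These markers, those of the labelled cell type, were detected in all 4 libraries. Their median log2 fold change was 1.02, on the opposite side from that of the members. Not all rose: 6 were not called, among them *Rec8* at -0.54 and *Spo11* at 0.01. Of 12 spermatogonial markers, 8 were decreased by unadjusted p, against 16.3% of all genes. Their sum was 2486 and 2921 RPM in control against 478 and 463 in *Eef1g*-cKO. *Kit* and *Uchl1*, the most abundant of them, stood at 1615 and 1146 control reads against 17 and 47, and at 2874 and 1807 against 36 and 56. Of 10 Sertoli cell markers tested, 2 were decreased by unadjusted p, against 16.3% of all genes tested, each with 3 or fewer *Eef1g*-cKO reads. None was decreased by adjusted p in limma, and 1 of 4 was in edgeR, against 11.2% of genes tested there. Their sums were 227 and 104 RPM in control against 80.4 and 44.1 in *Eef1g*-cKO. *Gata4* was at 0 in both *Eef1g*-cKO libraries. Of 4 peritubular markers, 1 was decreased by unadjusted p, against 16.3% of all genes, and none by adjusted p in limma or edgeR. Their sums were 144 and 111 against 53.6 and 66.2. The 3 Leydig cell, 3 endothelial and 1 macrophage markers in the table had at most 33 reads per library and list, and none of 7 blood cell markers was in the table. The part of these cells in the lower level of the members was not tested.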

How the data were processed

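The authors deposited 1 table of 11598 genes with FPKM and with normalized counts, a signal in which each gene's count was divided by a size factor per library. Dividing each library's values by its smallest value above 0, taken as 1 read, gave whole reads for 100% of values in every library (tolerance 0.001). The authors' own log2 fold changes, errors, test score, p-values and adjusted p-values stand in the same deposited table and were not used. The table's gene length served to check FPKM against the recovered reads and to obtain the library totals. The submitters' processing notes name cutadapt, Bowtie, STAR and the builds mm10 and hg38, with no roles. The counter, annotation, strand setting and test for Ribo-seq are not given in the sources used here. Symbols were matched to RefSeq GRCm38.p6 (10966 by symbol, 598 by older symbol, 34 unmatched), and the table's lowest sum of reads over the 4 libraries was 10. No other RefSeq gene overlapped a member.

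The main test was limma 3.58.1 (R 4.3.3) with a trended prior on log2(FPKM + 1), over 10475 genes whose mean FPKM was 1 or more. The limma p-values rest on the spread between 2 libraries a genotype, drawn toward a prior spread taken over all genes. An exact permutation test of a single value could not go below p = 0.333. edgeR 4.0.16 (TMM, quasi-likelihood) and DESeq2 1.42.0 on the recovered reads were alternatives, with other pseudocounts, filters, scalings, thinning, removal of the GC trend and leaving out each library. Where 1 library was left in a genotype, it was assumed to vary like those of the other. The scripts were tested on simulated data. Ratios of pooled reads used exact binomial intervals (scipy 1.17.1, Python 3.11.15).

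The members and lists were chosen with earlier results of these data known, so no list was tested. From each related list, up to 3 genes passing the unadjusted test, in order of p, with genotypes apart and over 3 *Eef1g*-cKO reads where lower, were named, with all members and *Eef1g*. Marker genes were named for being at 0 or most abundant, *Sycp3* and *Hormad1* as examples, and *Rec8* and *Spo11* as markers that did not rise, after their values were seen.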

Additional observations from a re-analysis of the deposited data

How the results depend on the processing

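The 6 members decreased by unadjusted p numbered between 4 and 8 under the alternatives that kept all 4 libraries, and between 2 and 7 with 1 library left out, the lowest without control replicate 1. The 3 decreased by adjusted p became 5 in edgeR with TMM, with RLE size factors or without a filter on low counts. Over all genes, RLE size factors gave 880 of 8056 and no filter 876 of 11598. The members' count became 0 with a pseudocount of 0.1, with a prior variance without a trend, or with libraries thinned to the shallowest. With the pseudocount of 0.1, 47 of 10475 genes passed as decreased, beside 521 in the main fit. Leaving out 1 library moved the adjusted calls of members and of all genes in the same direction. In the thinned and untrended fits no gene of the table passed the adjusted p, as also without either control library. The median log2 fold change of the members, -1.45, was -1.002 with a pseudocount of 5. The sign of *Ier2* (-0.12) turned to 0.089 with libraries centred, to 0.27 with the GC trend removed and, with 1 library left out, ranged from -0.40 to 0.15 (the latter without *Eef1g*-cKO replicate 2). That of *Klf6* (0.10) turned to -0.55 with thinned libraries, and ranged from -0.38 (without control replicate 2; -0.37 without *Eef1g*-cKO replicate 1) to 0.58 with 1 library left out. The cause was not tested in any of these cases. Neither gene passed under any setting run. No member was increased under any setting.

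The main fit did not pair the libraries by replicate number. The deviations of control replicate 1 and *Eef1g*-cKO replicate 1 from their genotype means had r = -0.008 across 10475 genes. These genes are not independent replicates. With 2 libraries per genotype and medians of 5 and 8 *Eef1g*-cKO reads per gene, this r left pairing undecided. With the replicate number as a block, 8 members were decreased by unadjusted p, *Jun* and *Zfp36* in addition, and 4 by adjusted p. In the same fit 1825 of all 10475 genes tested were decreased by unadjusted p and 822 by adjusted p. Depth limits the *Eef1g*-cKO values most, since 1 read on a gene of 1 kb is worth 4.47 and 2.45 FPKM there and 0.403 and 0.722 in control.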
